A study of Homo sapiens and Mus musculus with 81 samples.

Results

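The genes described here are 36 members of the interferon response and of the sensors that detect foreign RNA, listed by gene name, with no threshold on a measured value. Each was read on its brightest probe set in log2 intensity. All 36 were found among 17836 named genes of the human array, on 45 probe sets. On the mouse array 35 were found among 21931 named genes, on 43 probe sets, with Oasl1 taken for OASL. No probe set was matched to Oas1a, so OAS1 was not analysed in mouse.

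The study measured how siRNAs change transcripts other than their target, on 81 arrays in 4 systems. Small interfering RNAs are short RNA duplexes that guide the silencing machinery to a matching messenger RNA. HUH7 and PLC/PRF/5 are lines from human hepatomas, and Hepa1-6 comes from a mouse hepatoma. The 32 HUH7 arrays and the 24 PLC/PRF/5 arrays covered 7 siRNAs and mock transfection. Of the siRNAs, APOB-Hs1 to APOB-Hs4 are named for human APOB (the gene of apolipoprotein B), Apob-Mm1 and Apob-Mm2 for mouse Apob, and RAD18 for a DNA repair gene. The 16 Hepa1-6 arrays covered mock transfection and 3 of these siRNAs, namely APOB-Hs1, APOB-Hs3 and also APOB-Hs4. Cells received 10 nM siRNA in a lipid reagent and were collected at 6, 12, 24 and 48 h (PLC/PRF/5 at 6, 12 and 48 h only), with 1 array per treatment and time. The 9 mouse liver arrays covered APOB-Hs1, APOB-Hs4 and APOB-Hs3, with 3 livers each, taken 3 d after a dose of 3 mg/kg in lipid nanoparticles. No untreated or nanoparticle-only liver was analysed here, and strain, sex and age were not given in the sources used.

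Cells detect RNA of viral type with TLR3 and TLR7 in endosomes and with RIG-I (DDX58), MDA5 (IFIH1) and LGP2 (DHX58) in the cytosol. These sensors lead to the interferon beta gene IFNB1, whose product binds the receptor chains IFNAR1 and IFNAR2 and acts through STAT2 and IRF9 on a common set of target genes. The targets include antiviral effectors such as the IFIT and OAS families, MX1, MX2, RSAD2 and BST2, the kinase PKR (EIF2AK2), and brakes on the pathway such as USP18. Because double-stranded RNA and lipid carriers can set off this response, its genes are commonly read in siRNA experiments.

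Many interferon targets carry an interferon-stimulated response element close to their start site. It is approximated here by the letters GAAANNGAAA on either strand, where N is any base. RefSeq promoters (build GRCh38.p14, from 250 bases before to 50 after the start site) were matched for 25 of the 36 human members, and 15 of these (60%) held the motif, against 1255 of all 35116 promoters (3.57%). Matches can overlap, and a match is only a description of the letters. The shorter palindrome TTCNNNGAA, the form bound by STAT dimers, was in 11 of the 25 (44%) and in 2689 of all promoters (7.66%). The 200 bases before the start site are shown for 5 members, written 5′ to 3′ on the gene's strand, with each GAAANNGAAA match in capitals (as TTTCNNTTTC where it lies on the other strand). IFIT1 and IFIT3 are shown as neighbours of 1 family, IFI27 and IFI44 because their mouse namesakes differed between livers, and BST2 because it differed most between the human lines. IFIT1 lies at chr10:89392423-89392622 on the + strand, IFIT3 at chr10:89332329-89332528 (+), IFI27 at chr14:94110615-94110814 (+), IFI44 at chr1:78649631-78649830 (+) and BST2 at chr19:17405631-17405830 (-).
IFIT1: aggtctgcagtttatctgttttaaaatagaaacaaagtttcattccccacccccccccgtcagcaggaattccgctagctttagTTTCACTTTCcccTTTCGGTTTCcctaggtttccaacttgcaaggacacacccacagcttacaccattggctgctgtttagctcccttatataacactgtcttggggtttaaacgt
IFIT3: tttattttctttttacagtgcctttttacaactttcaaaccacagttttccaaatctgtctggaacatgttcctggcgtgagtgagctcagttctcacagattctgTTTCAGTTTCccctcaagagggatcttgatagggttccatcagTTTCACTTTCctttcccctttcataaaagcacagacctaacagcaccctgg
IFI27: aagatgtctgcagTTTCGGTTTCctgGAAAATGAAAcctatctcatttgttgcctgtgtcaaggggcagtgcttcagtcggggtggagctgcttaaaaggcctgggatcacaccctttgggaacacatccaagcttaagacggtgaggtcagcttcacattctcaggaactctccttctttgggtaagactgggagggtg
IFI44: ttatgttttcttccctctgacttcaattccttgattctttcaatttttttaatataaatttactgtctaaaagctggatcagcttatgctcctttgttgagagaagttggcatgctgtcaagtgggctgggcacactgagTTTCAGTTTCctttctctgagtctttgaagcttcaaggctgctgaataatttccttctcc
BST2: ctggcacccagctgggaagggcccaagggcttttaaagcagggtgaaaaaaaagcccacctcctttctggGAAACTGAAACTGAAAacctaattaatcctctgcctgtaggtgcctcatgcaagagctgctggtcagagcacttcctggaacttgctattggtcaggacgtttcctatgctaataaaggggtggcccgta
IFIT1 held matches that began 116 and 103 bases before the start site, and IFIT3 held matches at 94 and 51 bases. IFI27 held matches at 187 and 174 bases, 1 on each strand. IFI44 held a match at 60 bases, and BST2 held a pair of overlapping matches at 130 and 124 bases. The 11 members without a matched promoter entry were IFIT2, USP18, IRF3, IRF7, OAS2, OASL, MX2, DHX58, TLR7, GBP2 and IFNAR2.

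For each array the closest other array of the same system had a correlation of 0.9901 or more. The targeted genes were low where the labels say so. APOB differed from mock by -1.69 to -3.27 on the log2 scale under the siRNAs named for human APOB in the human lines and by -2.32 to -2.64 in Hepa1-6, and RAD18 differed by -1.98 in HUH7 and -3.25 in PLC/PRF/5 under its own siRNA. Under the siRNAs named for mouse Apob, human APOB also lay below mock but did not pass. The HUH7 differences were -1.27 with Apob-Mm1 and -0.81 with Apob-Mm2, those of PLC/PRF/5 were -2.44 with Apob-Mm1 and -1.82 with Apob-Mm2, and adjusted p ran from 0.1 to 0.191. In liver, with no untreated group, Apob could only be compared between siRNAs. It was lowest with APOB-Hs4, at 0.47 for APOB-Hs1 minus APOB-Hs4 (adjusted p = 0.165) and -0.68 for APOB-Hs4 minus APOB-Hs3 (0.163). APOB-Hs1 minus APOB-Hs3 was -0.21 (0.579). Any relation of Apob level to the members was not tested. The widest spread around the fitted model was in PLC/PRF/5 with APOB-Hs2 (residual SD 0.199) and APOB-Hs4 (0.186) at 48 h, in HUH7 with APOB-Hs1 at 12 h (0.166) and in liver 1 of APOB-Hs4 (0.166). Of 8 hepatocyte markers, 0 lay below the median gene intensity in HUH7 and in liver, 1 in PLC/PRF/5, and 5 in Hepa1-6.

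The liver comparison asked whether siRNAs to the same target left different interferon responses in the tissue. Livers given APOB-Hs1 had lower interferon-stimulated genes than livers given APOB-Hs4. In the fit across all genes (limma, Benjamini-Hochberg adjusted p under 0.05, two-sided), 5 of 35 members fell (14.3%) and 0 rose, against 0.565% of all genes called in that comparison. The 5 were Ifi27, Ifit2, Ifi44, Irf7 and Ifit3. Of the 35 members, 31 had the lower mean with APOB-Hs1 and 21 had an unadjusted p under 0.05, of which 20 were lower. Of all 21931 genes, 2747 had an unadjusted p under 0.05. The median difference over members was -0.30, and over all genes it was 0.01.

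Ifi27 encodes a small mitochondrial and nuclear membrane protein whose transcript is among the strongest interferon targets in human cells. It measured 7.69, 7.38 and 7.85 in the APOB-Hs1 livers, against 8.82, 8.64 and 8.78 in the APOB-Hs4 livers. The groups did not overlap, and the difference was -1.11 (SE 0.13, adjusted p = 0.00658), or 2.15-fold lower with APOB-Hs1. The probe set carries the symbol Ifi27 in the array annotation, and the mouse family has several closely related members.

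The IFIT proteins bind viral RNA that lacks the host cap methylation. Ifit2 measured 7.37, 7.52 and 7.43 with APOB-Hs1, against 8.07, 8.05 and 8.35 with APOB-Hs4 (difference -0.72, SE 0.10, adjusted p = 0.0119). Ifit3 measured 5.97, 6.60 and 6.17 with APOB-Hs1, against 6.96, 6.91 and 7.18 with APOB-Hs4 (-0.77, SE 0.15, adjusted p = 0.047). Every APOB-Hs1 liver lay below every APOB-Hs4 liver for both genes. Ifit1, the third measured gene of the family, measured 7.01, 7.96 and 6.84 with APOB-Hs1, against 7.62, 7.27 and 7.69 with APOB-Hs4. For Ifit1 the groups overlapped, because liver 2 of APOB-Hs1 was the highest of the 6, and the difference did not pass (-0.26, adjusted p = 0.763).

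Irf7, the transcription factor that amplifies interferon production, measured 7.56, 7.88 and 7.76 with APOB-Hs1, against 8.24, 8.50 and 8.62 with APOB-Hs4 (-0.72, SE 0.12, adjusted p = 0.0321). Ifi44, an interferon target of less certain function, measured 7.64, 7.74 and 7.54 with APOB-Hs1, against 8.23, 8.39 and 8.67 with APOB-Hs4 (-0.79, SE 0.13, adjusted p = 0.0321). Both genes separated the groups of livers without overlap. Usp18, the protease that removes ISG15 from proteins and dampens the receptor, measured 6.64, 7.36 and 6.68 with APOB-Hs1, against 7.71, 7.75 and 8.16 with APOB-Hs4, and did not pass (-0.98, SE 0.19, adjusted p = 0.0502). Bst2 (tetherin), which holds budding virus at the cell surface, measured 9.13, 9.36 and 10.27 with APOB-Hs1, against 10.99, 10.49 and 10.65 with APOB-Hs4 (-1.13, SE 0.31, adjusted p = 0.151). In all, 15 of 35 members were lower in every APOB-Hs1 liver than in every APOB-Hs4 liver, and 1, the exonuclease gene Isg20, was higher in every APOB-Hs1 liver (0.41, adjusted p = 0.131). Of all genes, 8.63% were lower and 8.41% were higher in every APOB-Hs1 liver.

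**Figure D1:**
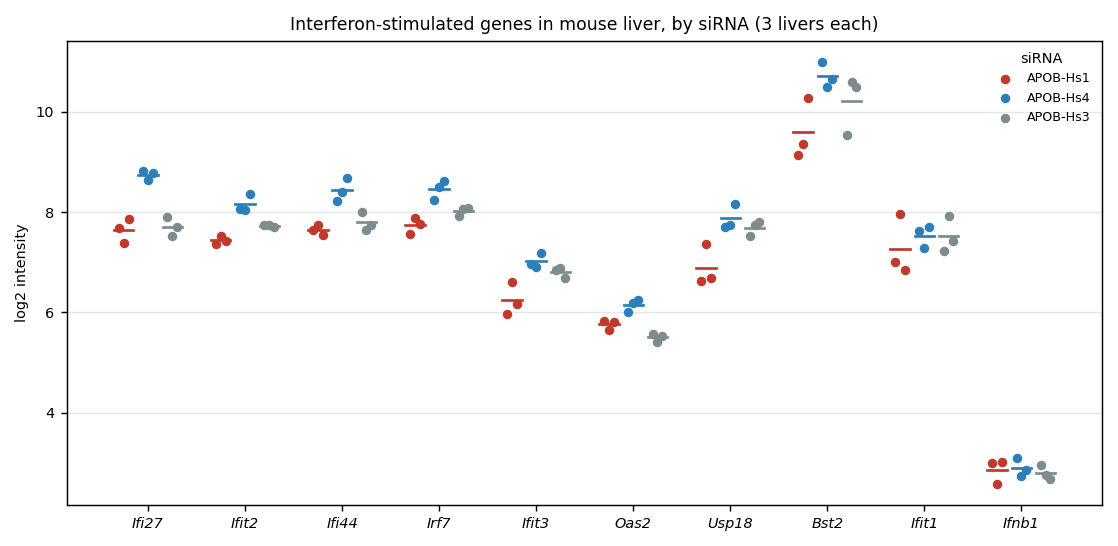
Log2 intensity (vertical axis) of 10 members in each mouse liver, 3 livers per siRNA, with bars at the group means, for APOB-Hs1 (red), APOB-Hs4 (blue) and APOB-Hs3 (grey). Ifi27 lies between 7.38 and 7.85 with APOB-Hs1 and between 8.64 and 8.82 with APOB-Hs4, while Ifnb1 stays between 2.59 and 3.10 in all 9 livers.

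The APOB-Hs4 livers also stood above the APOB-Hs3 livers for some members. This comparison shares the APOB-Hs4 livers with the one above. Of 35 members 2 rose (5.71%), against 0.0866% of all genes. Ifi27 measured 8.82, 8.64 and 8.78 with APOB-Hs4, against 7.90, 7.53 and 7.70 with APOB-Hs3 (difference 1.04, SE 0.13, adjusted p = 0.0161). Oas2, a synthetase of the oligoadenylates that switch on RNase L, measured 6.00, 6.19 and 6.25 with APOB-Hs4, against 5.58, 5.42 and 5.54 with APOB-Hs3 (0.64, SE 0.10, adjusted p = 0.0395). Neither gene overlapped between the groups. The median over members was 0.14, and over all genes it was 0.00. In every APOB-Hs4 liver 11 of 35 members were higher than in every APOB-Hs3 liver, against 5.89% of all genes, and 2 were lower, against 7.45%.

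Between APOB-Hs1 and APOB-Hs3 livers, limma called 0 of 35 members, against 0.0775% of all genes. An unadjusted p under 0.05 was reached by 13 members, of which 12 were lower with APOB-Hs1, and by 2515 of all 21931 genes. Usp18 had the lowest adjusted p of the members (difference -0.79, SE 0.19, adjusted p = 0.193). It measured 6.64, 7.36 and 6.68 with APOB-Hs1, against 7.52, 7.73 and 7.81 with APOB-Hs3. Ifi27 did not pass between these siRNAs (-0.07, adjusted p = 0.879), nor did Ifi44 (-0.15, adjusted p = 0.691). In every APOB-Hs1 liver 10 of 35 members were lower than in every APOB-Hs3 liver, against 9.18% of all genes, and 2 were higher, against 8.46%.

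The RNA sensors themselves did not pass in any liver comparison. Ifih1 measured 8.92, 9.22 and 8.96 with APOB-Hs1, against 9.42, 9.30 and 9.51 with APOB-Hs4, without overlap (-0.38, SE 0.10, adjusted p = 0.138). Ddx58 (-0.11), Tlr3 (-0.13) and Eif2ak2 (0.02) overlapped between those groups, as did Tlr7 (-0.29, adjusted p = 0.3). Ifnb1 measured 3.00, 2.59 and 3.01 with APOB-Hs1, against 3.10, 2.74 and 2.85 with APOB-Hs4, and 11.8% of all genes were dimmer in liver. It lay below the median gene intensity in all 4 systems, and no detection calls were used, so a level this low has no known relation to background.

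Genes outside the member list were read in fixed lists. Of 27 measured further interferon-stimulated genes, 2 fell in APOB-Hs1 livers relative to APOB-Hs4 livers and 0 rose: Lgals3bp, a secreted glycoprotein gene (-0.67, SE 0.09, adjusted p = 0.012), and Ifitm3, an inhibitor of virus entry (-0.60, SE 0.08, adjusted p = 0.00894). The list's median was -0.25 and 15 of its genes had an unadjusted p under 0.05. Of 17 adaptors and kinases of RNA and DNA sensing, 17 genes of receptor signalling, 12 of antigen presentation, 9 guanylate binding proteins and interferon gamma chemokines, 16 NF-kB targets and 5 other interferon genes, 0 were called in any liver comparison, with 4, 0, 6, 2, 3 and 0 at an unadjusted p under 0.05 between APOB-Hs1 and APOB-Hs4. In that comparison 2747 of all 21931 genes had an unadjusted p under 0.05, so small counts in these lists are no result about them.

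A whole liver holds several cell types, and fewer cells of a type cannot be told apart from less RNA per cell. Each marker list was read as the log2 of its summed linear intensities, which gives most weight to its brightest genes. For 11 Kupffer cell and macrophage markers it ran from 11.12 to 11.65 in APOB-Hs1 livers, from 11.58 to 11.73 in APOB-Hs4 livers and from 11.45 to 11.94 in APOB-Hs3 livers. Of these markers 0 were called between APOB-Hs1 and APOB-Hs4, and their median difference was -0.33. An unadjusted p under 0.05 was reached by 5 of them and by 2747 of all 21931 genes. For 10 lymphocyte markers the range was 9.04 to 9.18 with APOB-Hs1, 9.26 to 9.30 with APOB-Hs4 and 8.94 to 9.26 with APOB-Hs3, and 7 of the 10 lay below the median gene intensity. Other lists overlapped between APOB-Hs1 and APOB-Hs4 livers. The ranges with APOB-Hs1 and APOB-Hs4 were 11.2 to 11.7 and 11.6 to 11.8 for endothelial markers, and 8.1 to 8.5 and 8.1 to 8.9 for neutrophil markers. They were 8.8 to 9.0 and 8.9 to 9.2 for plasmacytoid dendritic cell markers, and 16.7 to 16.8 in both for hepatocyte markers. The part of any of these cells in the member differences was not tested. Leaving out each liver in turn kept Ifi27 past the threshold between APOB-Hs1 and APOB-Hs4 in all 9 cases and Ifit2 in 8 (adjusted p = 0.0682 without APOB-Hs1 liver 1). Ifi44, Irf7 and Ifit3 were lost in 5, 6 and 7 of the 9 cases, with adjusted p up to 0.137 for Ifi44, 0.146 for Irf7 and 0.215 for Ifit3 over all alternatives. Of the APOB-Hs4 and APOB-Hs3 differences, Ifi27 was lost in 5 cases and Oas2 in 8.

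In the cell lines the question was whether any siRNA moved the members relative to mock at the same times. In HUH7, 2 of 252 combinations of member and siRNA passed (0.794%), against 1.57% of all combinations of gene and siRNA. Of the 252 in PLC/PRF/5, limma called 0, against 0.261%, with 24 at an unadjusted p under 0.05. In the mouse line, 2 of 105 passed (1.9%), against 0.847%. An unadjusted p under 0.05 was reached by 37 of 252 in HUH7 and 19 of 105 in Hepa1-6. Per siRNA, 632 to 2850 of 17836 genes reached it in HUH7 and 352 to 1761 in PLC/PRF/5. In Hepa1-6 1987 to 3191 of 21931 genes did. Over the mean of all siRNAs, limma called 0 members in each line, with 7, 0 and 5 at an unadjusted p under 0.05 in HUH7, PLC/PRF/5 and Hepa1-6. The shares of all genes called in that comparison were 0.207%, 0.00561% and 0.0365%. An unadjusted p under 0.05 was reached by 1687 and 810 of 17836 genes in HUH7 and PLC/PRF/5, and by 2040 of 21931 in Hepa1-6.

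**Figure D2:**
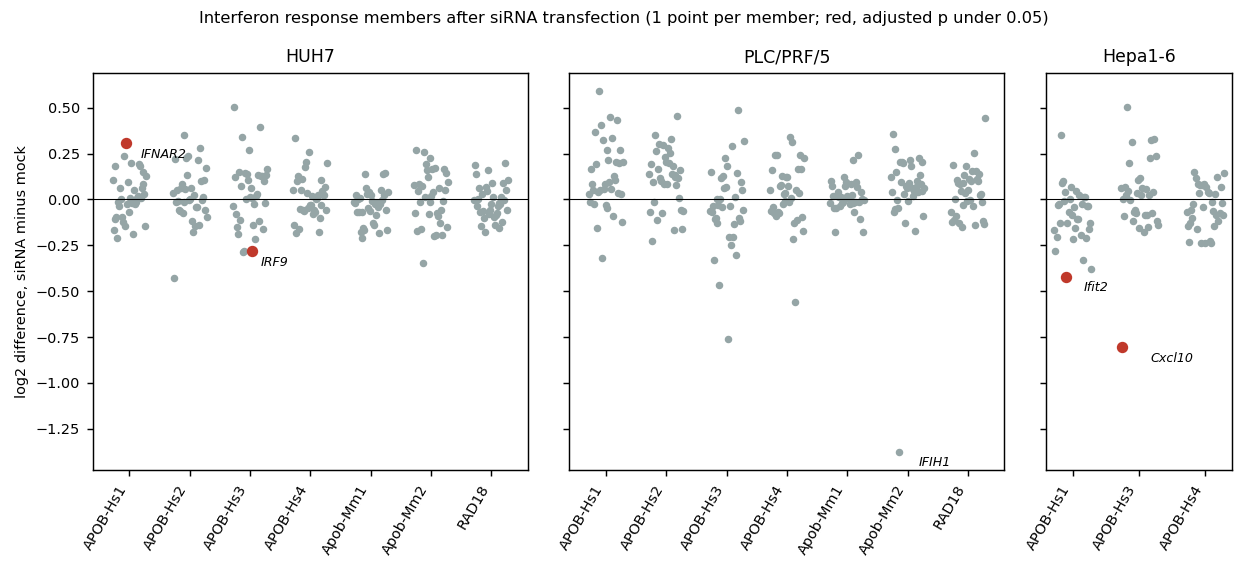
Log2 difference from mock (vertical axis) of each member under each siRNA in HUH7, PLC/PRF/5 and Hepa1-6, averaged over the time points, 1 point per member and red where the adjusted p was under 0.05. Most points lie within 0.5 of 0, and IFIH1 under Apob-Mm2 in PLC/PRF/5 lies at -1.38.

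IFNAR2, a chain of the type I interferon receptor, rose with APOB-Hs1 in HUH7. It measured 9.37, 9.39, 9.40 and 9.17 at 6, 12, 24 and 48 h with APOB-Hs1, against 9.13, 9.12, 9.0 and 8.86 in mock cells. It was higher at 4 of 4 times, by 0.31 (SE 0.06, adjusted p = 0.00515), or 1.24-fold. In PLC/PRF/5 the same siRNA gave a difference of 0.32 at 3 of 3 times that did not pass (SE 0.10, adjusted p = 0.258).

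IRF9, the DNA-binding part of the complex that carries the interferon signal to target promoters, fell with APOB-Hs3 in HUH7. It measured 7.19, 7.04, 6.71 and 6.64 at 6, 12, 24 and 48 h with APOB-Hs3, against 7.27, 7.28, 7.13 and 7.02 in mock cells. The difference was -0.28 (SE 0.07, adjusted p = 0.0306), lower at 4 of 4 times. In PLC/PRF/5, chosen after its values were seen, IRF9 measured 8.01, 7.64 and 7.56 at 6, 12 and 48 h with APOB-Hs3, against 8.51, 8.51 and 8.48 in mock cells. It was lower at 3 of 3 times there without overlap, but the difference did not pass (-0.76, SE 0.19, adjusted p = 0.109). It passed in 3 of 8 alternatives. In Hepa1-6 Irf9 differed by 0.03 with the same siRNA (adjusted p = 0.968), on the mouse transcript.

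In Hepa1-6, Cxcl10, the chemokine that draws activated T cells, fell with APOB-Hs3. It measured 8.12, 7.29, 7.49 and 7.31 at 6, 12, 24 and 48 h with APOB-Hs3, against 8.57, 8.13, 8.27 and 8.47 in mock cells, without overlap. The difference was -0.81 (SE 0.11, adjusted p = 0.00443), or 1.75-fold lower. Ifit2 fell with APOB-Hs1 in the same line, at 7.0, 7.17, 6.97 and 7.91 with APOB-Hs1, against 7.42, 7.64, 7.66 and 8.02 in mock cells (-0.42, SE 0.09, adjusted p = 0.0406). The gap for Ifit2 was smallest at 48 h. Each of the 4 calls in the lines was lost when some of the time points were left out, IFNAR2 without 12 h or 24 h, IRF9 and Cxcl10 without 12, 24 or 48 h, and Ifit2 without 6, 12 or 24 h.

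The member farthest from mock in any line was IFIH1, the cytosolic sensor of long double-stranded RNA, in PLC/PRF/5 with Apob-Mm2. It measured 7.12, 6.34 and 4.94 at 6, 12 and 48 h with Apob-Mm2, against 7.59, 7.57 and 7.38 in mock cells. The gap widened with time, and at 48 h IFIH1 was 5.42-fold lower than in mock cells. The other 7 treatments stayed between 7.32 and 7.68 at 48 h. Averaged over times the difference was -1.38 (SE 0.28) and did not pass (adjusted p = 0.0526), in a model with 1 level of effect for all times. It passed in 5 of 8 alternatives, among them quantile normalization (adjusted p = 0.0436) and array weights (0.0226), and it did not without 12 h (0.919). In HUH7, where IFIH1 was dim, it measured 3.11, 2.94, 3.01 and 2.70 with Apob-Mm2, against 3.80, 3.12, 3.16 and 3.06 in mock cells (-0.35, adjusted p = 0.417).

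The other sensors gave no call. No DDX58, TLR3, TLR7, DHX58, EIF2AK2 or IFNB1 difference passed under any siRNA in any line. A test of whether the siRNA response differed between HUH7 and PLC/PRF/5 called 0 of 252 combinations, against 0.004% of all combinations, with 7 at an unadjusted p under 0.05. Per siRNA, 259 to 1233 of 17836 genes reached that level. At single arrays, chosen after their values were seen, CXCL10 stood at 8.73 with APOB-Hs3 in HUH7 at 48 h while the other treatments lay between 6.89 and 7.56, and OAS3 stood at 7.11 with APOB-Hs4 in PLC/PRF/5 at 48 h, while the others lay between 8.44 and 8.91. Neither has a replicate.

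More members differed between 6 and 48 h than between any siRNA and mock. The change from 6 to 48 h was fitted over all treatments, mock included, so it describes the culture as well as the siRNAs. In HUH7, 18 of 36 members passed (50%), 5 higher and 13 lower at 48 h, against 29.5% of all genes. For PLC/PRF/5, 12 of 36 passed (33.3%), 7 higher and 5 lower, against 18.7%. In Hepa1-6, 10 of 35 passed (28.6%), 6 higher and 4 lower, against 17.2%.

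USP18 rose in all 3 lines. It was higher at 48 h in 7 of 8, 8 of 8 and 4 of 4 treatments in HUH7, PLC/PRF/5 and Hepa1-6. Its mean at 6 and 48 h was 8.64 ± 0.08 and 9.03 ± 0.20 in HUH7 (SD, n = 8 treatments; difference 0.39, adjusted p = 9.14e-07), and 7.75 ± 0.06 and 8.30 ± 0.46 in PLC/PRF/5 (SD, n = 8; 0.56, adjusted p = 0.00155). In Hepa1-6 it was 9.03 ± 0.09 and 9.88 ± 0.33 (SD, n = 4; 0.85, adjusted p = 8.58e-06). STAT2, the signal carrier of the type I receptor, rose by 0.34 in HUH7 and by 0.45 in PLC/PRF/5, at 8 of 8 treatments in each. IRF3, the factor that the RNA sensors activate, rose by 0.17 in both human lines.

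IRF1, a transcription factor induced by interferon gamma and inflammatory signals, fell in both human lines. It was 7.21 ± 0.17 at 6 h and 6.41 ± 0.18 at 48 h in HUH7 (SD, n = 8; -0.80, adjusted p = 8.7e-12), and 7.09 ± 0.08 and 6.45 ± 0.14 in PLC/PRF/5 (SD, n = 8; -0.64, adjusted p = 2.27e-07). A dimmer IRF1 probe set differed by -0.02 in HUH7 and 0.01 in PLC/PRF/5, so the probe sets disagreed. In Hepa1-6, Irf1 rose by 0.23. MX1, a dynamin-like antiviral GTPase, fell by 0.39 in HUH7 and by 0.57 in PLC/PRF/5. It was dim, with 16.4% of all genes dimmer in HUH7 and 32% in PLC/PRF/5. GBP2, a guanylate binding protein, fell by 0.37 and by 0.44 in those lines. A dimmer GBP2 probe set differed by -1.94 in HUH7 and by -0.32 in PLC/PRF/5, so the size in HUH7 depends on the probe set. OAS3 differed by -0.47 and IFNAR1 by -0.39 between 6 and 48 h in HUH7.

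Other members moved in 1 human line more than in the other. A test of the difference itself passed for 8 of 36 members (22.2%), against 11.7% of all genes. IFIT1 rose in HUH7, with means of 5.22, 5.58, 5.81 and 6.10 at 6, 12, 24 and 48 h, higher at 48 h in 8 of 8 treatments (0.88, adjusted p = 2.92e-08). In PLC/PRF/5 IFIT1 had means of 7.90, 7.08 and 7.79 at 6, 12 and 48 h, and the treatments spread from 6.74 to 8.84 at 48 h. The lines differed by 0.99 (SE 0.19, adjusted p = 0.000504).

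ISG20, an exonuclease that degrades single-stranded RNA, fell in HUH7 and rose in PLC/PRF/5. It was 8.54 ± 0.08 at 6 h and 7.66 ± 0.15 at 48 h in HUH7, lower in 8 of 8 treatments (-0.88, adjusted p = 4.13e-12). Its PLC/PRF/5 means were 8.82 ± 0.07 and 9.24 ± 0.38, higher in 7 of 8 treatments (0.42, adjusted p = 0.00592). Mock PLC/PRF/5 cells were the exception, at 8.82 at both times. The rise was 0.24 without the APOB-Hs2 and APOB-Hs4 arrays at 48 h (adjusted p = 0.0112) and 0.25 with array weights (adjusted p = 0.0498). The lines differed by -1.30 (adjusted p = 2.91e-09). CXCL10 fell in HUH7, with means of 8.30, 7.63, 7.21 and 7.31 at 6, 12, 24 and 48 h (48 h minus 6 h, -0.99, adjusted p = 3.8e-06), and was higher at 48 h in 1 of 8 treatments, APOB-Hs3. CXCL10 in PLC/PRF/5 was low throughout, at 4.68 and 4.58.

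The remaining differences between the lines were -0.57 for IRF9, -0.57 for OAS3, -0.52 for PSMB9, -0.39 for OAS1 and -0.37 for IFI35, each lower over time in HUH7 than in PLC/PRF/5. OAS1 and OAS3 are oligoadenylate synthetases, PSMB9 is a subunit of the immunoproteasome and IFI35 is an interferon-induced protein of the cytosol. OAS1 in PLC/PRF/5 rose by 0.38, IRF9 by 0.36 and IFI35 by 0.31. Mock cells differed little between 6 and 48 h for these genes, with OAS1 at 7.16 and 7.25, IRF9 at 8.51 and 8.48 and IFI35 at 9.07 and 9.02. Without the APOB-Hs2 and APOB-Hs4 arrays at 48 h, chosen after the data were seen for their wide residual spread, IRF9 no longer passed. Then 11 of 36 members passed, with no share of all genes set beside that count. IRF9 also did not pass under quantile normalization, with array weights or without 12 h. OAS1 did not pass without 12 h (adjusted p = 0.058).

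**Figure D3:**
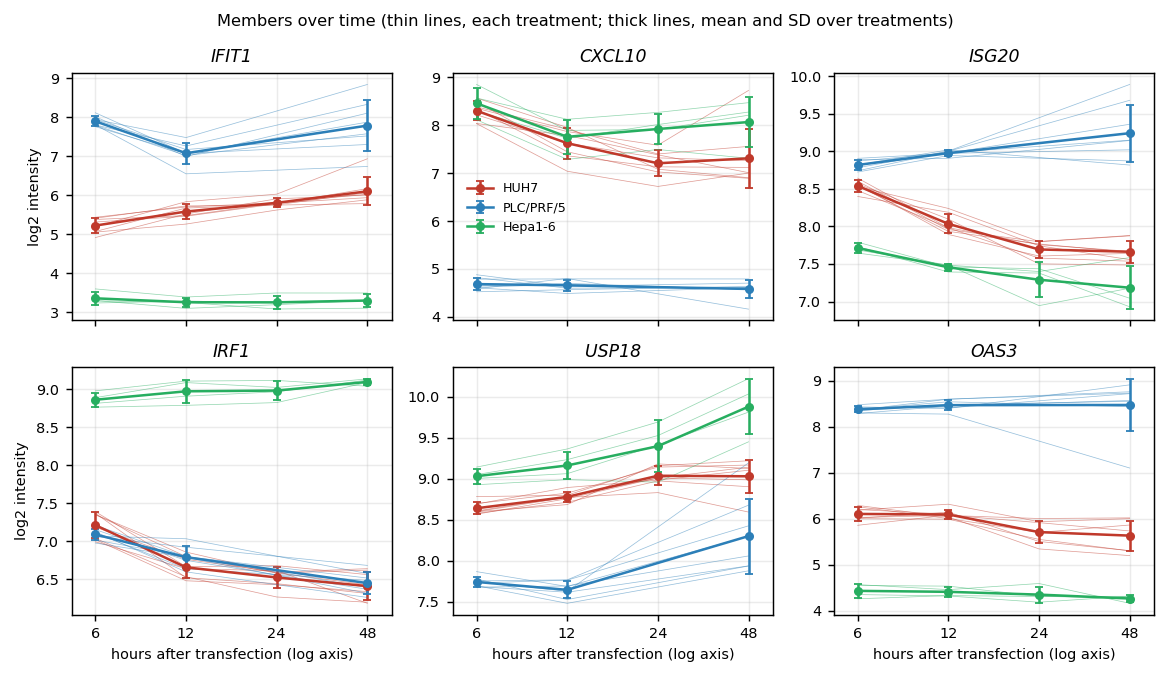
Log2 intensity (vertical axes) of 6 members by hours after transfection (log axes) in HUH7 (red), PLC/PRF/5 (blue) and Hepa1-6 (green), with a thin line per treatment and thick lines for the mean and SD over treatments. ISG20 goes down in HUH7 and up in PLC/PRF/5, and IFIT1 in HUH7 goes up at each later time.

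In Hepa1-6, Ifi27 rose by 0.94 (means 6.34 ± 0.08 at 6 h and 7.28 ± 0.66 at 48 h, SD, n = 4; adjusted p = 0.00299) and Ifit2 by 0.60 (7.34 ± 0.23 and 7.94 ± 0.07; adjusted p = 0.000273), each in 4 of 4 treatments. Ddx58 fell by 0.70 (8.79 ± 0.06 at 6 h and 8.09 ± 0.12 at 48 h; adjusted p = 2.05e-05), and both other Ddx58 probe sets differed in the same direction. Isg20 fell by 0.53, Cxcl10 by 0.39 and Ifnar1 by 0.31, while Irf9 rose by 0.34. A dimmer Ifnar1 probe set differed by 0.10, and the mean of the probe sets did not pass (adjusted p = 0.415). Cxcl10 did not pass with array weights or without 12 h.

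Other lists were read over the same times. Of 17 NF-kB targets and cytokines, 12 fell in HUH7 and 14 in PLC/PRF/5 from 6 to 48 h, and 10 of 16 fell in Hepa1-6, with 0 rising in each. Among all genes, 2306 of 17836 fell in HUH7, 1185 of 17836 in PLC/PRF/5 and 1853 of 21931 in Hepa1-6. TNFAIP3, the deubiquitinase that restrains NF-kB, fell by 0.50, by 1.56 and by 1.74 in HUH7, PLC/PRF/5 and Hepa1-6. BIRC3, an inhibitor of cell death, fell by 2.23, by 1.18 and by 0.57. Of 37 further interferon-stimulated genes, 3 rose and 8 fell in HUH7, and 7 rose and 4 fell in PLC/PRF/5. In PLC/PRF/5 18.7% of all genes were called. Of 27 such genes in Hepa1-6, 3 rose and 2 fell. For these genes the share called was near the 29.5% of all genes in HUH7 and the 17.2% in Hepa1-6, so their counts there are no result about the list.

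The mock-transfected human lines differed widely in their resting levels. With arrays at 6, 12 and 48 h paired by time, 27 of 36 members passed (75%), 7 higher and 20 lower in HUH7, against 59.5% of all genes. Of the effectors, IFIT1, OAS1, OAS3, OASL, MX1 and BST2 were lower in HUH7, MX2 and IFIT3 were higher, and IFIT2, OAS2 and RSAD2 did not pass. BST2 was 2.92 ± 0.05 in HUH7 and 11.61 ± 0.01 in PLC/PRF/5 (SD, n = 3 each; difference -8.69, SE 0.08, adjusted p = 1.01e-09), and 6.5% of all genes were dimmer in HUH7. Its promoter, shown above, is the same reference sequence for both lines and says nothing of how they differ.

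IFIH1 was 3.33 ± 0.41 in HUH7 and 7.51 ± 0.11 in PLC/PRF/5 (-4.19, adjusted p = 8.21e-08). IFI35 differed by -2.88, OAS1 by -2.61, OAS3 by -2.56, IFI27 by -2.41 and TAP1, the peptide transporter of antigen presentation, by -2.13. IFIT1 differed by -1.78, and the immunoproteasome subunits PSMB9 by -1.90 and PSMB8 by -1.05. The receptor chains IFNAR1 (-1.19) and IFNAR2 (-0.93), IRF9 (-1.31) and EIF2AK2 (-1.17) were lower in HUH7 as well. DDX58 differed by -1.47 on its brighter probe set and by 1.53 on the other, so its direction is uncertain.

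MX2, an antiviral GTPase related to MX1, ran the other way. It was 9.41 ± 0.29 in HUH7 and 4.21 ± 0.10 in PLC/PRF/5 (5.2, SE 0.14, adjusted p = 3.84e-08), and it was higher in HUH7 in 24 of 24 pairs of arrays matched for treatment and time. CXCL10 was 7.81 ± 0.84 in HUH7 and 4.64 ± 0.07 in PLC/PRF/5 (3.17, adjusted p = 1.57e-05), GBP2 differed by 1.67, IFIT3 by 1.47, USP18 by 0.98, IRF7 by 0.72 and TLR3 by 0.43. TLR3 was dim in both lines, with 14.9% of all genes dimmer in HUH7 and 7.9% in PLC/PRF/5. IFIT1 and IFIT3, which lie close together on chromosome 10, thus differed in opposite directions between the lines. The 9 members that did not pass were IRF1, IRF3, STAT2, IFIT2, OAS2, DHX58, RSAD2, IFNB1 and TLR7, of which the last 6 lay below the median gene intensity in both lines.

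**Figure D4:**
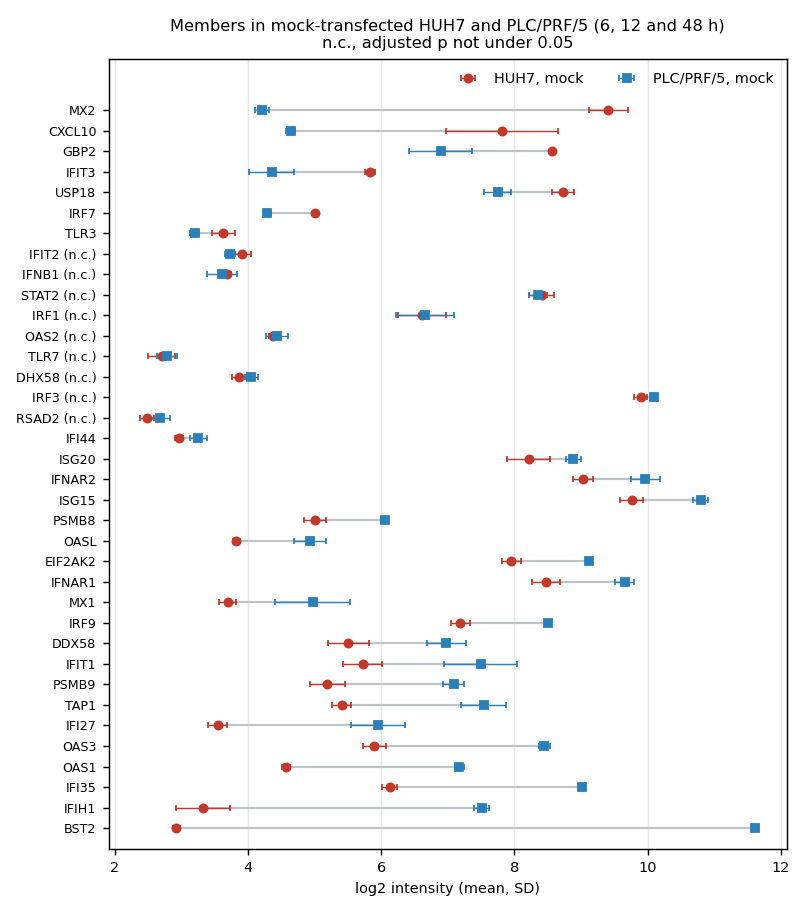
Log2 intensity (horizontal axis, mean and SD over 6, 12 and 48 h) of the 36 members in mock-transfected HUH7 (red circles) and PLC/PRF/5 (blue squares), in the order of their difference. MX2 stands at 9.41 in HUH7 and 4.21 in PLC/PRF/5, and BST2 at 2.92 in HUH7 and 11.61 in PLC/PRF/5.

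Liver differed from Hepa1-6 in most members. With the same 3 siRNAs, 32 of 35 members passed (91.4%), 23 higher and 9 lower in liver, against 83.5% of all genes. The median difference over all genes was -0.23, and over members it was 0.85. Under quantile normalization, which removes such a shift, all 35 members passed, 28 higher and 7 lower in liver, so directions of differences near 0 depend on the scaling. The tissue and the line also differ in carrier, dose and time after treatment, which cannot be told apart from the system. Ifi44 was 7.96 ± 0.39 in liver (SD, n = 9) and 2.75 ± 0.16 in Hepa1-6 (SD, n = 12), a difference of 5.21 (adjusted p = 4.17e-24). Ifit1 was 7.44 ± 0.39 in liver and 3.33 ± 0.14 in Hepa1-6 (4.11), and Ifit3 was 6.69 ± 0.39 and 3.84 ± 0.21 (2.85). Gbp2 differed by 3.26, Rsad2, an enzyme that makes a chain-terminating nucleotide, by 3.16, Psmb9 by 2.67, Isg15, the ubiquitin-like modifier, by 2.51 and Irf7 by 2.50.

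Of the IFIT family, Ifit2 was nearly level, at 7.77 ± 0.33 in liver and 7.52 ± 0.34 in Hepa1-6 (0.25, adjusted p = 0.0175). The sensors Ifih1 (1.56), Dhx58 (2.03) and Tlr7 (1.35) were higher in liver, and Tlr3 was higher by 0.23 with overlapping groups. Ddx58 did not pass (-0.09), and neither did Tap1 (0.06) or Bst2 (0.01). The signal carriers Stat2 (2.06) and Irf9 (2.32) were higher in liver.

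Members lower in liver were led by Cxcl10, at 5.88 ± 0.20 in liver and 7.95 ± 0.45 in Hepa1-6 (-2.07, adjusted p = 1.3e-12), Usp18 at 7.48 ± 0.52 and 9.34 ± 0.41 (-1.86) and Isg20 at 5.86 ± 0.22 and 7.37 ± 0.29 (-1.51). Eif2ak2 was lower by a difference of -1.13 on its brighter probe set and -0.04 on the other. Oasl1 (-0.93), Ifnb1 (-0.73), Ifnar1 (-0.48), Irf3 (-0.35) and Irf1 (-0.21) were also lower. Beside these, 10 of 11 Kupffer cell and macrophage markers, 8 of 8 endothelial markers and 9 of 10 lymphocyte markers were higher in liver. Of 6 plasmacytoid dendritic cell markers, 1 was higher and 4 were lower in liver. The log2 of their summed intensity ran from 8.76 to 9.22 in liver and from 10.60 to 11.52 in Hepa1-6. This list was brighter in a hepatoma line, so it cannot be read as a measure of that cell type here. Of all 21931 genes, 5910 were higher and 12394 were lower in liver, so the counts of this list are near those of all genes. The part of any of these cell types in the member differences was not tested. All 9 measured guanylate binding proteins and interferon gamma chemokines were higher in liver too, with a median difference of 3.58.

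**Figure D5:**
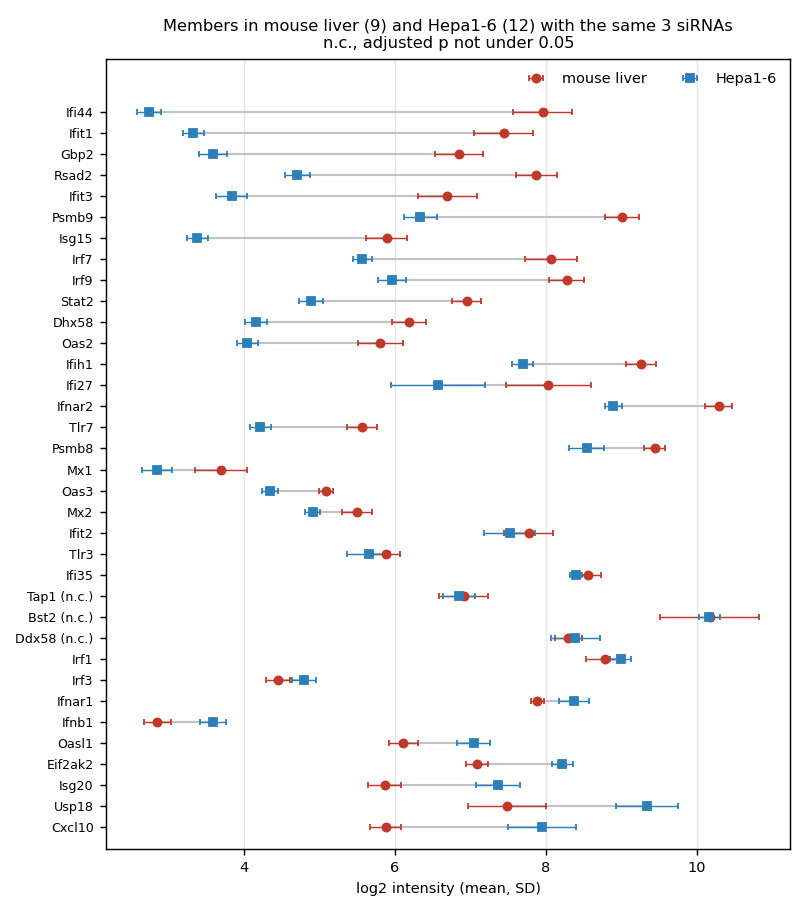
Log2 intensity (horizontal axis, mean and SD) of 35 members in mouse liver (red circles, 9 arrays) and Hepa1-6 (blue squares, 12 arrays) with APOB-Hs1, APOB-Hs3 and APOB-Hs4, in the order of their difference. Ifi44 stands at 7.96 in liver and 2.75 in Hepa1-6, and Cxcl10 at 5.88 in liver and 7.95 in Hepa1-6.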

How the data were processed

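The members and the gene lists were chosen with earlier results of these data known. The authors deposited an intensity for every probe set. RMA, which summarises the probes of a set over arrays, was the method per the submitters' processing notes, with neither version nor genome build given in the sources used here. The intensities were on a linear scale, with medians from 31.75 to 35.39 on the human arrays and from 19.73 to 22.55 on the mouse arrays, and their log2 was taken here.

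Of 43483 human and 43681 mouse probe sets, 25919 and 30342 carried 1 gene symbol in the array annotation. Human symbols were updated from RefSeq. A gene was read on its probe set with the highest mean over the arrays of its species. No detection calls were used, and the number of arrays limits the precision.

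Models were fitted across all named genes with limma 3.58.1 in R 4.3.3, with Benjamini-Hochberg adjustment within each contrast and a threshold of 0.05. In each line treatment and time were factors, so time points stood in for replicates. In liver the siRNA was the factor, and the p-values measure only the spread between these samples. The human lines were compared on mock arrays paired by time, and liver with Hepa1-6 over the 3 shared siRNAs, without time in the model. In both comparisons time points of a line again stood in for replicates, so those p-values measure only the spread between these arrays. The fit was tested on simulated data. Every member was named, with values in full for members called in an siRNA or liver contrast. Differences were given for the 8 called members farthest apart in each time or system contrast. Alternatives included averaging the probe sets of a gene, quantile normalization, array weights, leaving out genes dimmer than the median gene, leaving out times or livers, the liver number as a block, and other sets of arrays.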

Additional observations from a re-analysis of the deposited data

Results flagged for a closer look

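In 8 members the change from 6 to 48 h differed between HUH7 and PLC/PRF/5 in a test of the difference itself, and the values given are the HUH7 change minus the PLC/PRF/5 change in log2. They were 0.988 for IFIT1, -1.3 for ISG20, -0.893 for CXCL10, -0.574 for IRF9, -0.568 for OAS3, -0.516 for PSMB9, -0.387 for OAS1 and -0.374 for IFI35. IFIT1 is the member of the 8 whose change was higher in HUH7. PSMB9 did not pass with the mean of its probe sets or with array weights, and IFI35 did not with array weights.

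The median of the members in HUH7 with APOB-Hs1 at 12 h stood apart from the other times of that siRNA. It was at -0.057 from the mean of all treatments at 12 h, while the other 3 times were 0.092 to 0.116 above theirs. That array also had the widest residual spread of the HUH7 arrays. Of 20 checks of 4 arrays, on the median of the members or on 1 called member, 1 stood apart. Chance gives about 1 in 20 for independent checks, and these share arrays.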

How the results depend on the processing

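Of 61 results on named members, 43 kept their direction and their side of the threshold under every alternative run for them, and 0 reversed. Counts of member calls in the siRNA contrasts were small. Shares of all genes called under each alternative are not given here, so a changed count is no result about the members. In HUH7, 2 calls became 4 under quantile normalization (3 higher and 1 lower, against 1 and 1), 7 without the genes dimmer than the median gene, 11 with array weights, 4 without 6 h, 0 without 12 h, 0 without 24 h and 1 without 48 h. In PLC/PRF/5, 0 calls became 1 under quantile normalization, 1 without the dimmer genes, 8 with array weights, 1 without 6 h and 1 without 48 h, and 2 without the APOB-Hs2 and APOB-Hs4 arrays at 48 h, an alternative chosen after seeing the data. In Hepa1-6, 2 calls became 4 under quantile normalization (1 higher and 3 lower, against 0 and 2), 4 without the dimmer genes, 5 with array weights, 0 without 12 h, 0 without 24 h and 1 without 48 h. The 7 liver calls became 11 with array weights and ran from 2 (without APOB-Hs1 liver 1, APOB-Hs3 liver 3, APOB-Hs4 liver 2 or APOB-Hs4 liver 3) to 9 (without APOB-Hs1 liver 2) when each liver was left out. Leaving out the dimmer genes also left 13 of 27 calls between mock HUH7 and PLC/PRF/5, 19 of 32 between liver and Hepa1-6 and 5 of 8 for the time change between the human lines, with fewer genes tested by construction. For the other changes the cause was not tested.

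Deviations of same-numbered livers correlated at -0.144 to 0.188, and 3 of 9 livers correlated best with their own number. No pairing by number was seen, but with 3 livers per siRNA the check cannot show that the livers were unpaired. With the number as a replicate block, 6 liver calls were made (1 higher and 5 lower). Without detection calls, members below the median gene intensity may sit near background, and a difference there may be understated.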
